A study of Mus musculus with 4 samples.

Results

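Transcripts of Bergmann glia and astrocytes were examined in cerebella from mice (male, C57BL/6N, 10 weeks of age) given either clothianidin or vehicle by mouth. The set comprised 10 genes: Slc1a3, Slc1a2, Glul, Hopx, Gdf10, Fabp7, Gfap, S100b, Aqp4 and Sox9. The platform annotation gave a probe set for 9 of the 10, out of 19505 gene symbols on the array. Each of the 9 had a single probe set, so no choice between probe sets was needed. Glul, the glutamine synthetase gene, was not analysed here. The genes were read in 3 classes, which were glutamate uptake (Slc1a3 and Slc1a2), Bergmann-enriched (Hopx, Gdf10 and Fabp7), and astrocyte and reactive (Gfap, S100b, Aqp4 and Sox9).

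Clothianidin is a neonicotinoid insecticide, an agonist of insect nicotinic acetylcholine receptors. The exposed mice received 50 mg per kg per day for 4 days during which they were tested on the rotarod, an accelerating or turning rod that scores motor coordination. The control mice received vehicle over the same days, and the brains of both groups were taken right after the test. Total cerebellar RNA was hybridised to 1 Affymetrix array per sample, with 2 vehicle arrays (replicates 7 and 9) and 2 clothianidin arrays (replicates 6 and 7). Nothing in the labels states that these samples came from separate animals, so the p-values may reflect technical spread alone.

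Bergmann glia are the radial astrocytes of the cerebellar cortex. Their cell bodies lie beside the Purkinje cells, and their processes wrap the synapses of parallel and climbing fibres in the molecular layer. They clear glutamate from those synapses through sodium-coupled transporters, convert it to glutamine and return it to neurons, and they take part in potassium and water balance. Other cerebellar astrocytes sit among granule cells and in the white matter, where Gfap, the glial filament gene used as a sign of astrocyte reactivity, is prominent. In whole tissue, fewer cells of a type and less RNA per cell cannot be told apart.

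Upstream sequences are shown for 3 of the genes, the 2 uptake transporters, whose differences had opposite signs, and Fabp7, which varied most between replicates. RefSeq promoter windows (GRCm38.p6) were found for 8 of the 10 genes and none for Aqp4 or Sox9. Each line gives the 250 bases before the annotated start, 5′ to 3′ on the gene's strand. Capitals mark matches on either strand to 4 motifs. The CCAAT box was searched by the letters of its name. The GC box of specificity protein factors was spelled GGGCGG. The TATA box, where the transcription machinery assembles, was spelled TATAAA. The core site of RBPJ, the DNA-binding effector of Notch signalling, was spelled TGGGAA. A SOX site (AACAAT) was searched too and was not found in these 3 windows.
Slc1a3, chr15:8710808-8711057, minus strand: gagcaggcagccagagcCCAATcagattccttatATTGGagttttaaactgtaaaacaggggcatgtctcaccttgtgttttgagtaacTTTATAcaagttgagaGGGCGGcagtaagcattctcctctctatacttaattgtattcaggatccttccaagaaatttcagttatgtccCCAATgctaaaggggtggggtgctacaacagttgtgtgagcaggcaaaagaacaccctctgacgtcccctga
Slc1a2, chr2:102706188-102706437, plus strand: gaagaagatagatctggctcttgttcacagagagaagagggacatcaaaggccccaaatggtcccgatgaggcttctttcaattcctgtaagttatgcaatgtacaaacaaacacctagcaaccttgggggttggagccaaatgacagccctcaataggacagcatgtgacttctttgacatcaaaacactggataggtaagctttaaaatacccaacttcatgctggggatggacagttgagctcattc
Fabp7, chr10:57784673-57784922, plus strand: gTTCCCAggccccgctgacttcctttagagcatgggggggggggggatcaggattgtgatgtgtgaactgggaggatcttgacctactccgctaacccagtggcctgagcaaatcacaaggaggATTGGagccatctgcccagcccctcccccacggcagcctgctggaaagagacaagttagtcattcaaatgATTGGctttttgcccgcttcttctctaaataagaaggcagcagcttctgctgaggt
The Slc1a3 window held 3 CCAAT boxes, 1 GC box and 1 TATA box, none overlapping another. Its TATA match began 161 bases before the start. The Slc1a2 window held no match to any of the 5 motifs. The Fabp7 window held 2 CCAAT boxes, which began 126 and 56 bases before the start, and 1 RBPJ core 249 bases before it. Of 32817 such windows in the genome, 33.8% held a CCAAT box, 32.7% a GC box, 12.4% a TATA box, 21.6% an RBPJ core and 9.42% a SOX site. GC content was 44.8% in both transporter windows and 54.8% in that of Fabp7, beside a median of 52.4% over all windows. Of the remaining windows, that of Gdf10 stood out with 78.8% GC, 35 CpG dinucleotides and 4 GC boxes. These matches describe the letters and say nothing of binding.

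Across the array as a whole the groups were close. The median log2 value was 6.49 to 6.54 on the 4 arrays, and Pearson's r across probe sets was 0.986 to 0.989 for every pair, within and between groups. The median log2 value of the marker list was 14.9 for Purkinje cells and 15.69 for granule cells, whereas it was 5.27 for forebrain markers and 6.5 over all probe sets, although levels of different probe sets share no exact scale. Some properties, picked after the values of these arrays were seen, differed between the clothianidin arrays. Cytosolic ribosomal protein genes (57 genes) deviated from their 4-array mean by a median of -0.4 on clothianidin replicate 6 and 0.5 on clothianidin replicate 7, with 0.1 and -0.24 on vehicle replicates 7 and 9. Among probe sets of at least median level, the 25% of genes with the longest genomic span were highest on clothianidin replicate 6 in 51.9% of cases and on replicate 7 in 11.8%. In the 25% with the shortest span these shares were 21.1% and 36.0%.

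No glial gene of the set passed the test of clothianidin against vehicle across the array. In limma, with p-values adjusted over all 22206 probe sets, 0 of 9 passed the threshold of 0.05, where 0.0% of all probe sets did, and each of the 9 had an adjusted p of 0.997. At an unadjusted limma p under 0.05, 0 of 9 were counted, beside 4.23% of all probe sets (940). A linear model without moderation called 8 probe sets and none of the 9. Of the 9, 7 genes lay higher after clothianidin and 2 lower. Among all probe sets 48.1% lay higher, and among those of at least median level 58.4%. The 9 genes had a median log2 difference of 0.27, beside -0.01 over all probe sets and 0.06 over those of at least median level. Leaving out vehicle replicate 7, vehicle replicate 9 or clothianidin replicate 6 gave a median of 0.08 each time. Groups did not overlap for 2 of 9 genes (22.2%), Hopx and Sox9, both higher with clothianidin, where 30.6% of all probe sets did not overlap and 15.1% were higher without overlap, or 20.9% among those of at least median level. An exact permutation test of 2 arrays against 2 cannot give a p below 0.333.

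**Figure D1:**
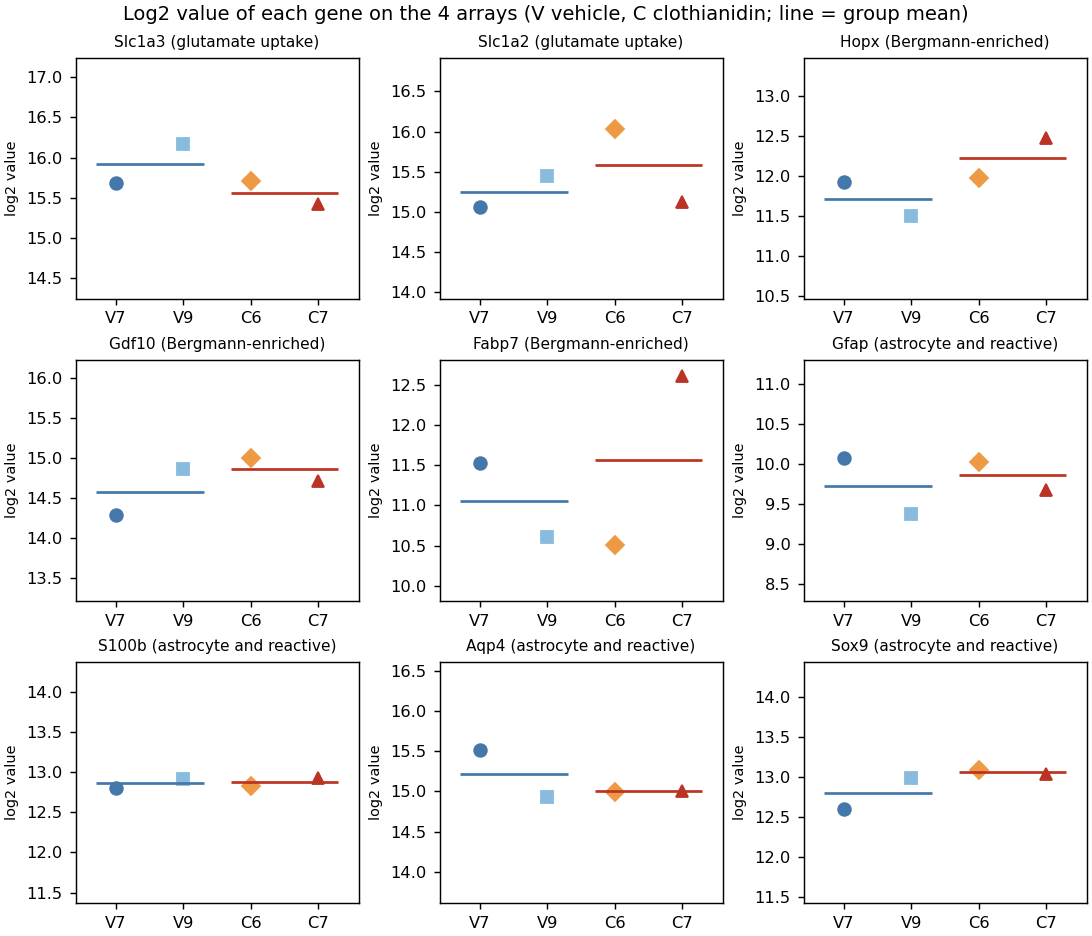
Log2 value of each of the 9 genes on vehicle replicates 7 and 9 (V7, V9) and clothianidin replicates 6 and 7 (C6, C7), 1 panel per gene, each spanning 3 log2 units, with a line at each group mean. Fabp7 has the widest spread, from 10.51 to 12.61, S100b lies between 12.80 and 12.93, and the groups are apart only for Hopx and Sox9.

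The 2 glutamate transporters pointed in opposite directions. Slc1a3 encodes GLAST, the main glutamate transporter of Bergmann glia. Its log2 value was 15.68 on vehicle replicate 7, 16.17 on vehicle replicate 9, 15.71 on clothianidin replicate 6 and 15.42 on clothianidin replicate 7. Vehicle replicate 9 was the highest and clothianidin replicate 7 the lowest, and the groups overlapped by 0.03 units between vehicle replicate 7 and clothianidin replicate 6. The log2 difference was -0.36 with a standard error of 0.30, a fold of 0.78 with a 95% interval from 0.48 to 1.26. It stayed below 0 with any 1 array left out, between -0.60 and -0.12, the latter without vehicle replicate 9.

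Slc1a2, the second glial glutamate transporter gene and the dominant one in the forebrain, was at 15.06 and 15.44 on vehicle replicates 7 and 9 and at 16.03 and 15.12 on clothianidin replicates 6 and 7. The highest value, on clothianidin replicate 6, stood apart, while clothianidin replicate 7 lay within the vehicle values. The log2 difference was 0.32 with a standard error of 0.36, a fold of 1.25 (95% interval 0.7 to 2.24). Without clothianidin replicate 6 it was -0.13, and without clothianidin replicate 7 it was 0.78. The gap of 0.91 between the clothianidin arrays exceeded that of 93.4% of probe sets. Both transporter genes belong to the 25% with the longest genomic span, a class that was most often highest on clothianidin replicate 6, and the part of this in the Slc1a2 value was not tested.

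As a class the uptake genes had a median deviation from their 4-array mean of -0.21 and 0.23 in the controls (replicates 7 and 9) and of 0.29 and -0.31 after clothianidin (replicates 6 and 7). Each group therefore held 1 array above and 1 array below the mean, and the class median difference of -0.02, which was 0.01 with the arrays centred on a common median, averages 2 genes of opposite sign. Without clothianidin replicate 6 it was -0.32, without vehicle replicate 7 it was -0.24, and without vehicle replicate 9 and clothianidin replicate 7 it was 0.20 and 0.28. With Slc1a3 counted among the Bergmann-enriched genes, Slc1a2 alone remained at 0.32 and the Bergmann-enriched median was 0.39. The high array of each group came from a different gene. On vehicle replicate 9 Slc1a3 deviated by 0.43 and Slc1a2 by 0.03, and on clothianidin replicate 6 by -0.03 and 0.62.

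All 3 Bergmann-enriched genes had positive differences, and none passed the test. Their median of 0.50 was the value of Fabp7, which turned to -0.56 without clothianidin replicate 7. Hopx, which encodes a small homeodomain protein that does not bind DNA itself, was at 11.92 and 11.50 on vehicle replicates 7 and 9 and at 11.98 and 12.48 on clothianidin replicates 6 and 7. Both clothianidin values lay above both vehicle values, the nearest pair by 0.06 units. The log2 difference was 0.52 with a standard error of 0.31, a fold of 1.43 with a 95% interval from 0.87 to 2.36 and an unadjusted limma p of 0.133. It was 0.27 without clothianidin replicate 7, 0.31 without vehicle replicate 9, 0.73 without vehicle replicate 7 and 0.77 without clothianidin replicate 6. Of the 9 genes Hopx had the largest difference, and 2811 probe sets on the array had one at least as large in either direction.

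Gdf10, a secreted ligand of the bone morphogenetic protein family that is made by Bergmann glia, read 14.29 and 14.86 in the controls (replicates 7 and 9) and 15.00 and 14.72 after clothianidin (replicates 6 and 7). Vehicle replicate 7 was the low array, and vehicle replicate 9 lay between the 2 clothianidin arrays. The log2 difference of 0.28 (standard error 0.31, 95% interval -0.43 to 1.0) became 0 when vehicle replicate 7 was left out and 0.57 when vehicle replicate 9 was.

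Fabp7, the brain fatty acid binding protein gene of radial and Bergmann glia, varied more between replicates than any of the other 8 genes. Its log2 value was 11.53 and 10.60 on vehicle replicates 7 and 9, 10.51 on clothianidin replicate 6 and 12.61 on clothianidin replicate 7. The 2 clothianidin arrays were thus the lowest and the highest of the 4. The gap of 2.10 between them, 4.29-fold, was reached by 31 of 22206 probe sets, and in 29 of the 31 the higher value was on replicate 7. The log2 difference between groups was 0.50 with a standard error of 0.63, and its 95% interval, from -0.97 to 1.96, was the widest of the 9. It turned to -0.56 without clothianidin replicate 7 and was 1.54 without clothianidin replicate 6, 0.96 without vehicle replicate 7 and 0.03 without vehicle replicate 9.

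Some other measures had the same low and high arrays as Fabp7, and others did not. Ribosomal protein genes had their highest value on clothianidin replicate 7 in 80.7% of cases and their lowest median on clothianidin replicate 6. Fabp7 belongs to the 25% with the shortest genomic span, as do Gfap, S100b and Sox9. Gfap and Sox9 were lower on clothianidin replicate 7 than on replicate 6, at 9.68 against 10.03 and 13.04 against 13.09. S100b was at 12.93 against 12.83. Ependymal markers (11 of 12 measured) deviated by a median of -0.3 on clothianidin replicate 6 and 0.21 on replicate 7. Of these 11, 6 were highest on clothianidin replicate 7 and 0 lowest there, and 6 were lowest on clothianidin replicate 6. The choroid plexus gene Ttr shared only the high array, at 13.96 on clothianidin replicate 7 against 6.38 on clothianidin replicate 6 and 5.70 and 5.67 on vehicle replicates 7 and 9. Choroid plexus markers as a list (12 of 14 measured) deviated by -0.04 and 0.13 on the clothianidin arrays and were lowest, at -0.13, on vehicle replicate 9. Of these 12, 5 were highest on clothianidin replicate 7, Ttr among them, and 4 were lowest there. Kcnj13, another of the 5, read 8.92 on that array against 6.73 to 6.99 on the others. For oligodendrocyte precursor markers (11 of 12 measured), a cell type in which Fabp7 is also expressed, the order of the clothianidin arrays was the opposite, at 0.13 and -0.13. The part of these in the Fabp7 value was not tested.

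**Figure D2:**
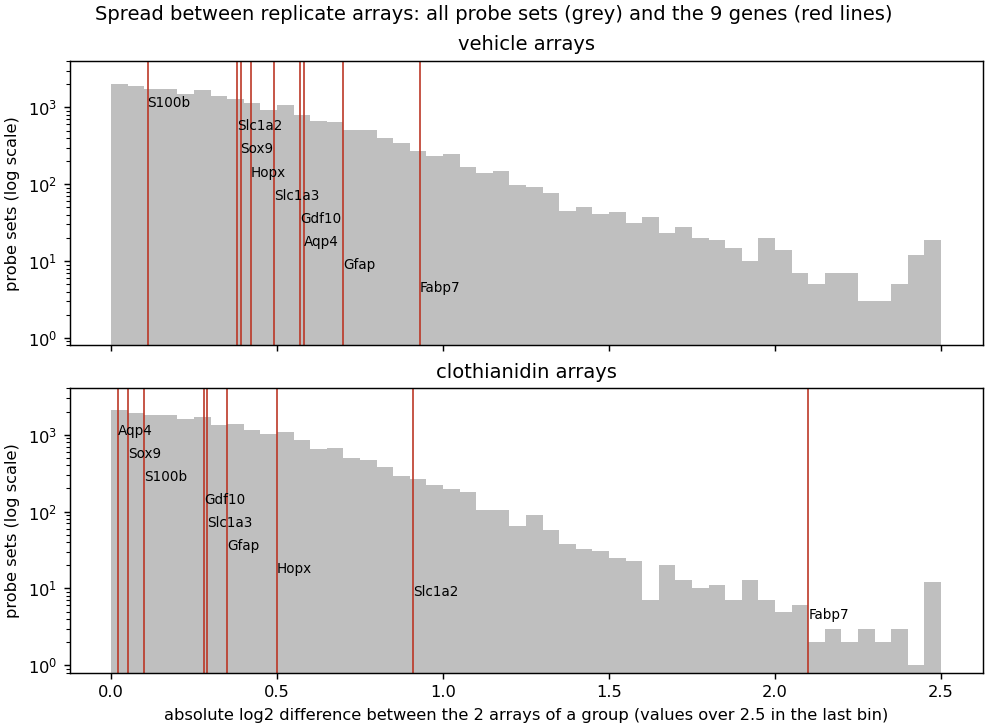
Absolute log2 difference between the 2 arrays of a group for all 22206 probe sets (grey bars, log count axis, values over 2.5 placed in the last bin) and for the 9 genes (red lines), with vehicle above and clothianidin below. Fabp7 stands at 2.10 among the clothianidin arrays, whereas Aqp4, Sox9 and S100b stand at 0.02, 0.05 and 0.10.

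The astrocyte and reactive class, with 3 of 4 genes higher and 1 lower, had a median of 0.08 that was -0.01 after further quantile normalization. Gfap was at 10.08 and 9.38 on vehicle replicates 7 and 9 and at 10.03 and 9.68 on clothianidin replicates 6 and 7. Both clothianidin values fell inside the vehicle range. The log2 difference was 0.12 with a standard error of 0.33, a fold of 1.09 with a 95% interval from 0.64 to 1.85, so that neither a change within those bounds nor its absence could be shown. It was -0.22 without vehicle replicate 9 and -0.05 without clothianidin replicate 6, and 0.48 and 0.30 without vehicle replicate 7 and clothianidin replicate 7.

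S100b, a calcium-binding protein gene of astrocytes that oligodendrocytes express too, was the steadiest of the 9. It read 12.80 and 12.91 in the controls and 12.83 and 12.93 after clothianidin, a range of 0.13 over the 4 arrays that was wider than that of only 1.1% of probe sets. The log2 difference was 0.02 (-0.06 after further quantile normalization), and the 95% interval, from -0.59 to 0.64, reflects the spread that limma borrows from the whole array rather than that of S100b.

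Aqp4, the water channel of astrocyte end-feet, was at 15.51 and 14.93 on vehicle replicates 7 and 9 and at 14.99 and 15.01 on clothianidin replicates 6 and 7. The clothianidin arrays differed by 0.02 and lay between the vehicle arrays, close to vehicle replicate 9. The log2 difference of -0.22 (standard error 0.30, 95% interval -0.92 to 0.48) became 0.07 when vehicle replicate 7 was left out and -0.51 when vehicle replicate 9 was.

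Sox9, the transcription factor gene of the astrocyte lineage, read 12.60 and 12.99 in the controls (replicates 7 and 9) and 13.09 and 13.04 after clothianidin (replicates 6 and 7). Both clothianidin values lay above both vehicle values, with 0.05 units between the nearest pair. The log2 difference was 0.27 with a standard error of 0.28, a fold of 1.21 (95% interval 0.77 to 1.89), and it ranged from 0.08 without vehicle replicate 7 to 0.46 without vehicle replicate 9. Sox9 and Hopx were thus the genes with separated groups, and in both the separation was smaller than the gap between the vehicle replicates, 0.39 and 0.42.

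**Figure D3:**
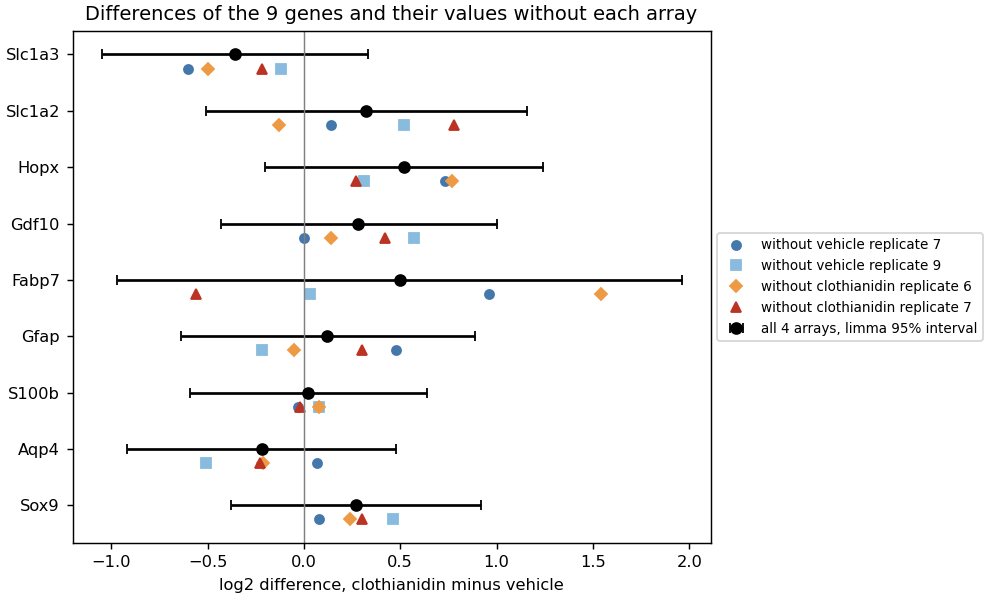
Log2 difference, clothianidin minus vehicle, for the 9 genes with all 4 arrays (black points, bars are limma 95% intervals) and with 1 array left out (coloured symbols). Every interval spans 0, and the difference changes sign for Slc1a2, Fabp7, Gfap, S100b and Aqp4 when 1 array is left out.

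Spread between arrays of one group exceeded the difference between groups in 8 of 9 genes, the exception being Hopx. The sign of the difference changed with 1 array left out in 5 of 9 genes. The shares over all probe sets were not counted for either measure, so these counts are not read as results about the 9 genes. Gdf10 reached 0, and Slc1a3, Hopx and Sox9 kept their sign in all 4 fits.

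Other genes of these cells and pathways were read as 5 lists. Apart from Kcnj10, the genes named from each list were those with its smallest unadjusted limma p-values. Of the 133 genes measured, 3 higher and 1 lower had an unadjusted limma p under 0.05, beside 4.23% of all probe sets. Of the glutamate-glutamine cycle genes, 12 of 17 measured lay higher after clothianidin and 5 lower, at a median of 0.11, with 0 calls in limma. Groups did not overlap for 3 of 17 (17.6%), all higher, beside 20.9% higher without overlap among all probe sets of at least median level. Got1, the cytosolic aspartate aminotransferase gene, read 13.70 and 13.70 in the controls and 14.70 and 14.17 after clothianidin. Its log2 difference of 0.74 had an unadjusted limma p of 0.0381 and an adjusted p of 0.997, and was 0.47 without clothianidin replicate 6. The mitochondrial glutamate carrier gene Slc25a18 had a log2 difference of 0.62 (0.36 without vehicle replicate 9), and the glutamine transporter gene Slc38a2, which is largely neuronal, had 0.42 (0.26 without clothianidin replicate 6). Slc1a1, the neuronal glutamate transporter gene, had -0.56, but -0.08 without vehicle replicate 7. In this list 12 of 17 genes were lowest on vehicle replicate 9, where the list deviated by a median of -0.37, and without that array the median difference was -0.21. It was also below 0, at -0.10, without clothianidin replicate 6.

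Of 34 other Bergmann and astrocyte markers, 21 were higher and 13 lower, with 0 calls and a median of 0.08 that was -0.01 after further quantile normalization. Groups did not overlap for 14 of 34 (41.2%), 11 of them higher and 3 lower, beside 20.9% higher and 9.84% lower among probe sets of at least median level. The list was chosen with earlier results of these data known, so its count is a description. Its median level of 14.14 was above the 9.56 of that reference, so these shares are not matched for level. Over all 133 genes of the 5 lists, 36 did not overlap (27.1%), 18.0% higher and 9.02% lower, beside 30.6% of all probe sets. The growth factor gene Ptn read 11.29 and 11.27 in the controls and 11.77 and 12.20 after clothianidin, and the apolipoprotein gene Apoe at 17.07 and 16.64 and at 17.75 and 17.30. Their log2 differences of 0.70 and 0.67 had unadjusted limma p-values of 0.0391 and 0.061, and that of Apoe was 0.44 without clothianidin replicate 6. Ppp1r3c, which encodes a subunit that directs a phosphatase to glycogen, had a log2 difference of 0.66, but 0.26 without vehicle replicate 9, its low array at 10.10, and 1.05 without vehicle replicate 7. Itih3, an inter-alpha-trypsin inhibitor heavy chain gene, had -0.55. Of the 34 genes, 17 were lowest on vehicle replicate 9 and 16 highest on clothianidin replicate 6.

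The list for potassium buffering, water balance and gap junctions held more genes lower than higher. Of 17 measured, 5 were higher and 12 lower, with a median of -0.12 and 0 calls, and the groups did not overlap for 4, all lower (23.5%), beside 9.84% lower without overlap among probe sets of at least median level and 15.5% among all. Without vehicle replicate 7 the median was 0.04. Kcnj10, a potassium channel gene, was among those higher, at 0.19, but 0.01 without clothianidin replicate 6. Gja1, which encodes the astrocyte gap junction protein connexin, read 13.99 and 13.88 in the controls and 13.67 and 13.66 after clothianidin, for a log2 difference of -0.27 (standard error 0.27). Trpv4, a calcium-permeable channel gene with dim values here, had -0.48, and the dystrophin gene Dmd had 0.38, which was 0.05 without clothianidin replicate 6. Fxyd1, a regulator of the sodium pump, had 0.42 and followed clothianidin replicate 7, at 11.28 against 9.90 to 10.33 on the other arrays. Without that array it was at -0.26.

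Of 36 measured genes of the reactive astrocyte list, 15 were higher, 20 lower and 1 equal, with 0 calls and a median of -0.03 that was 0.03 after further quantile normalization. The median lay between -0.06 and 0.04 with 1 array left out, and was 0.14 with probe sets below the median level left out. Groups did not overlap for 6 of 36 (16.7%), 3 higher and 3 lower, beside 30.6% of all probe sets. Vim, an intermediate filament gene that partners Gfap in reactive astrocytes and is also expressed in Bergmann glia, endothelium and ependyma, read 13.73 and 12.87 in the controls and 14.08 and 14.07 after clothianidin. Its log2 difference was 0.78 (standard error 0.34) with an unadjusted limma p of 0.053. The difference became 0.34 when vehicle replicate 9 was left out and 1.20 when vehicle replicate 7 was. Steap4, Iigp1 and Psmb8, of which the latter 2 respond to interferon, had log2 differences of -0.55, -0.46 and -0.42. That of Steap4 was -0.02 without vehicle replicate 9, that of Iigp1 -0.24 without clothianidin replicate 7 and that of Psmb8 -0.10 without vehicle replicate 7. The list's median log2 value was 5.57, below the array median of 6.5, so most of its members were dim and whether they were detected is unknown.

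Glial transcription factor and Notch pathway genes had 19 of 29 higher and 10 lower, with a median of 0.18 and 0 calls. Without clothianidin replicate 6 the median was -0.02. Groups did not overlap for 9 of 29 (31.0%), 7 of them higher and 2 lower, beside 30.6% of all probe sets. Id4, an inhibitor of helix-loop-helix factors that is expressed in astrocytes, read 11.49 and 11.87 in the controls and 12.49 and 12.50 after clothianidin. The log2 difference of 0.82 (standard error 0.28) had the smallest unadjusted limma p of the 5 lists, 0.0201, and an adjusted p of 0.997. With 1 array left out it lay between 0.62 and 1.0. Emx2, a forebrain homeobox gene with dim values here, had -0.76, the Notch receptor gene Notch3 had 0.48 (0.28 without clothianidin replicate 6), and the Notch target gene Hey2 had -0.52, which was -0.09 without clothianidin replicate 7.

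**Figure D4:**
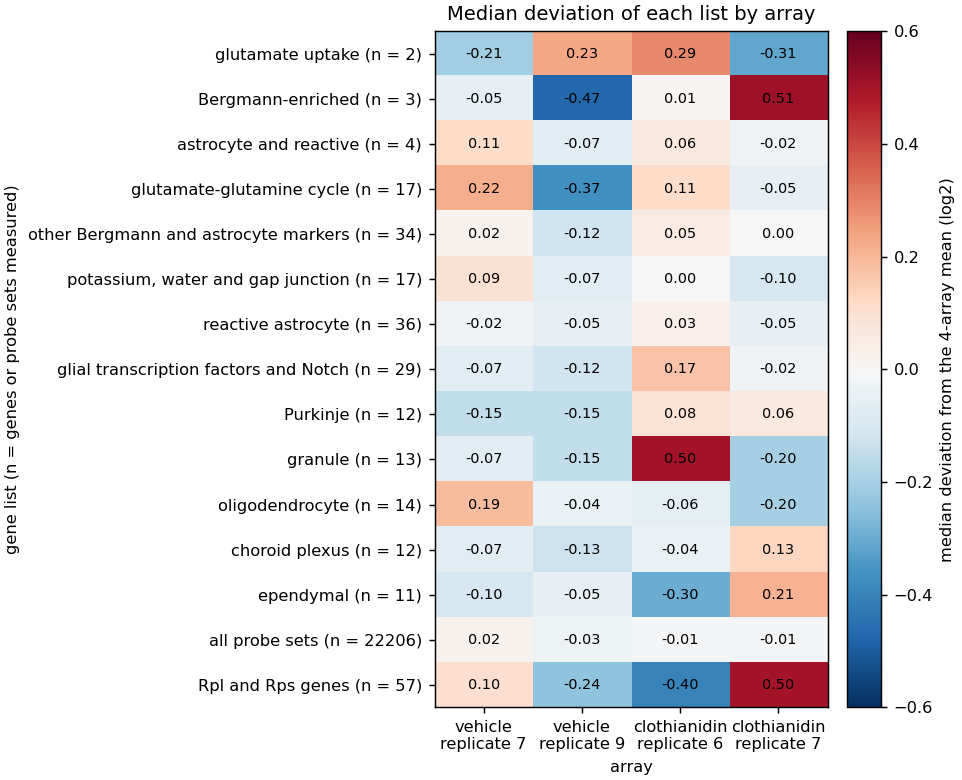
Median deviation of each list from its 4-array mean, in log2 units, on each array (columns), with the number of measured genes or probe sets beside each list name. The uptake class is high on 1 array of each group, the Bergmann-enriched class runs from -0.47 on vehicle replicate 9 to 0.51 on clothianidin replicate 7, and ribosomal protein genes run from -0.4 to 0.5 between the clothianidin arrays.

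By array, the Bergmann-enriched class deviated by -0.05 and -0.47 on vehicle replicates 7 and 9 and by 0.01 and 0.51 on clothianidin replicates 6 and 7. The astrocyte and reactive class deviated by 0.11 and -0.07 and by 0.06 and -0.02. On every array the Bergmann-enriched median was the value of Hopx, the middle gene of the 3, so its separation of the groups is that of Hopx alone, and the groups overlapped for Gdf10 and Fabp7. The class median difference was 0.31 without vehicle replicate 9 and 0.27 without clothianidin replicate 7, again the values of Hopx, while Fabp7 was at 0.03 and -0.56 in those fits. Of the 21 classes and lists, 6 had array medians that did not overlap between the groups, beside 30.6% of all single probe sets. The 4 that lay higher after clothianidin were the Bergmann-enriched class, the glial transcription factor and Notch list, Purkinje cell markers (-0.15 and -0.15 against 0.08 and 0.06) and choroid plexus markers (-0.07 and -0.13 against -0.04 and 0.13). The 2 that lay lower were oligodendrocyte markers (0.19 and -0.04 against -0.06 and -0.2) and forebrain markers (0 and 0.04 against -0.15 and -0.1).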

How the data were processed

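Labelled with biotin through GeneChip WT reagents, the RNA of each of the 4 cerebellum samples went onto its own array, per the labels' protocols. The authors deposited log2 values, 1 summary per probe set, for which the submitters' processing notes name RMA. Neither the settings of RMA nor the log base, taken as 2, is given in the sources used here. Signal over background is unknown, so a dim value is given without a call of detection, and the number of arrays limits the precision.

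Probe sets were named through the platform annotation (19572 of 22206 probe sets with 1 symbol, 0 with several, 2634 not named), and 0 symbols changed when updated through gene identifiers. The comparison was fitted by limma 3.58.1 (lmFit, eBayes; R 4.3.3) over all probe sets, with Benjamini-Hochberg adjustment at 0.05, a prior SD of 0.306, and prior and residual degrees of freedom of 5.96 and 2. The procedure was tested on simulated data. Lists were described by counts and medians. The members and lists were chosen with earlier results of these data known. The ribosomal protein and genomic span sets were added after the values were seen. Text names all measured members, up to 4 genes of each of 5 glial lists by smallest unadjusted p, the nearest profile of each member, and the first measured marker of each of 13 cell type lists. Kcnj13 and Kcnj10 were named outside this rule, after their values were seen. The listed name Pc was matched through a synonym. Alternatives were median centring, quantile normalization, filters on level, other summaries per gene, other variance priors, another threshold, other class summaries and leaving out each array.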

Additional observations from a re-analysis of the deposited data

How the results depend on the processing

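The count of 0 called members held under every alternative run. Over all probe sets the count of calls was 0, 8 without moderation, 940 at an unadjusted p under 0.05, and 0 to 1 with 1 array left out, the single call being Ttr without clothianidin replicate 6 (limma adjusted p = 0.0133), a fit whose lone clothianidin array is assumed to vary like the vehicle arrays. The median over the members, 0.27, was 0.19 after quantile normalization, 0.16 as a mean, and 0.08 to 0.27 with 1 array left out. The range with 1 array left out was -0.32 to 0.28 for glutamate uptake, 0.27 to 0.77 for the Bergmann-enriched class and -0.07 to 0.13 for the astrocyte and reactive class. Groups did not overlap for 5 to 7 members with 1 array left out, as 1 array against 2 overlaps less often by construction. The share over all probe sets was not counted in those fits, so this count is not read as a result about the members. Signs also changed for single genes. After quantile normalization S100b was at -0.06 and Pvalb at -0.06. With 1 array left out, Slc1a2 ranged from -0.13 to 0.78, Fabp7 from -0.56 to 1.54, Gfap from -0.22 to 0.48, S100b from -0.03 to 0.08 and Aqp4 from -0.51 to 0.07. The range was -0.26 to 1.12 for Fxyd1, -0.20 to 0.15 for Gabra6, -0.46 to 0.61 for Pvalb, -0.28 to 0.15 for Cspg4, -0.52 to 0.02 for Cx3cr1, -0.82 to 0.28 for Cldn5, -0.24 to 0.16 for Pdgfrb, -0.03 to 0.29 for Col1a1 and -0.28 to 0.34 for Neurod6. The cause was not tested. Of 534 values of single genes under the alternatives, 24 changed sign and 1 became a call. Of 234 medians of the glial and cell type lists, 25 changed sign, 16 of them with 1 array left out, and 21 others moved by more than the replicate spread. The sign changes with all 4 arrays included 0.06 to -0.06 for interneurons after quantile normalization, and 0.17 to -0.07 for ependyma and -0.09 to 0.26 for forebrain with probe sets below the median level left out. No paired analysis was possible because the groups share only replicate number 7.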

Other observations

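Markers of the other cell types in the tissue were read the same way, and 0 of them passed limma adjusted over all probe sets. Of all probe sets 48.1% lay higher after clothianidin, and of those of at least median level 58.4%, at a median of 0.06. The median log2 difference was 0.22 for Purkinje cells (9 of 12 measured higher), 0.27 for granule cells (10 of 13 higher), 0.06 for molecular layer and Golgi interneurons (8 of 12 higher) and -0.16 for oligodendrocytes (12 of 14 lower). It was 0.05 for oligodendrocyte precursors (7 of 11 higher), -0.14 for microglia and macrophages (9 of 13 lower), -0.02 for endothelium (7 of 11 lower) and -0.02 for pericytes and smooth muscle (6 of 12 higher). For meninges and fibroblasts it was 0.23 (10 of 14 higher), for choroid plexus 0.17 (7 of 12 higher), for ependyma 0.17 (6 of 11 higher), for blood -0.12 (2 of 4 higher) and for forebrain -0.09 (4 of 8 higher). The granule median was -0.02 without clothianidin replicate 6, the oligodendrocyte median -0.03 without vehicle replicate 7 and the ependymal median -0.31 without clothianidin replicate 7.

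The log2 difference of the first measured marker of each list was 0.66 for Calb1, a Purkinje cell calcium buffer gene. It was -0.02 for Gabra6, the granule cell GABA receptor subunit gene, and 0.08 for Pvalb, a calcium buffer gene placed in the interneuron list. It was 0 for the myelin gene Mbp, -0.06 for Cspg4, -0.26 for Cx3cr1, -0.27 for Cldn5, -0.04 for Pdgfrb, 0.13 for Col1a1, -0.50 for Ccdc153, 0.30 for Alas2 and 0.03 for Neurod6. Those of Ccdc153 and Alas2 were -0.19 and 0.18 without vehicle replicate 9. For Ttr it was 4.49, and 0.70 without clothianidin replicate 7.

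For each member, the gene with the nearest profile was sought among 9875 other named genes of at least median level, by Euclidean distance between deviations from the 4-array mean. With 4 arrays many genes lie close to any profile, and 826 lay within 0.25 of S100b, 485 of Gfap and 511 of Aqp4. Only 1 lay within 0.25 of Fabp7. That gene was Ift20, an intraflagellar transport gene of cilia, which read 10.99 and 10.38 in the controls and 10.09 and 12.13 after clothianidin, at a distance of 0.24. The nearest gene was Cntrob for Slc1a3 (distance 0.07), Fam53b for Slc1a2 (0.08), Zfp946 for Hopx (0.04), Mnt for Gdf10 (0.05), Fam13b for Gfap (0.04), Tmem88 for S100b (0.03), Atp5k for Aqp4 (0.04) and Plcb1 for Sox9 (0.04). Among the members themselves the nearest pair was Gdf10 and Sox9, at a distance of 0.21, and the farthest was Slc1a2 and Fabp7, at 2.33.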
